A study of Rattus norvegicus with 2 samples.

Results

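The neurotrophins Bdnf and Ntf3, the related factor Gdnf and 5 of their receptors, Ntrk2, Ntrk3, Ngfr, Gfra1 and Ret, were measured in the lumbar spinal cord (SC) of rats after nerve injury. These 8 trophic genes were listed by name, and each was represented by 1 probe set that named no other gene, so all 8 were measured among 18171 named genes. The rats were adult male Sprague-Dawley animals, and segments L4-L6 were taken 10 days after surgery. In the chronic constriction injury (CCI) group the left sciatic nerve carried 4 loose ligatures, and in the Sham group the nerve was exposed without being tied. The RNA of 3 rats was mixed in each group, which gave 1 Affymetrix Rat Gene 2.0 ST array per group. Single rats therefore cannot be told apart, and no difference below has an error, a test or a p-value. The sources used here do not say which side of the cord the array RNA came from.

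Neurotrophins are secreted proteins that keep neurons alive and shape their synapses. They bind Trk receptor tyrosine kinases, Bdnf preferring TrkB (Ntrk2) and Ntf3 preferring TrkC (Ntrk3), and all of them can bind the p75 receptor (Ngfr), a death-domain protein of the TNF receptor superfamily. Gdnf belongs to the TGF-beta superfamily and first binds the membrane-anchored co-receptor Gfra1, which then engages the kinase Ret. In the dorsal horn, Bdnf acting on Ntrk2 is known to lower the chloride transporter Slc12a5 (KCC2) in pain models of rodents, and Gdnf is a survival factor for motor neurons.

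Values are log2 expression by robust multi-array average (RMA), the intensity of a probe set on the log2 scale, and a difference is CCI minus Sham. As a rough gauge of background, the 95th percentile of 1344 olfactory and vomeronasal receptor genes was 4.36 in CCI and 4.44 in Sham. Across all named genes the median difference was -0.01 with an SD of 0.26. Of the lumbar Hox genes listed, 4 of 6 were measured and all 4 were above the gauge in both arrays, with Hoxd10 at 7.65 in CCI and 7.49 in Sham. The 3 measured forebrain genes included 2 at or below it in both arrays, Emx2 and Neurod6, while Emx1 was at 4.68 in CCI and 4.49 in Sham. Levels of different genes were not ranked, because probe sets differ in how strongly they bind.

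Ngfr was the member that differed most. It was at 6.42 in the CCI pool and 5.48 in the Sham pool, a difference of 0.95 or 1.93-fold. Both values were above the background gauge, and this was the sole member past 1.5-fold, the fold threshold of the study. Past that fold, the higher members thus numbered 1 of 8 and the lower members 0, against 1.64% of all named genes higher (298 of 18171) and 1.14% lower (208).

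**Figure D1:**
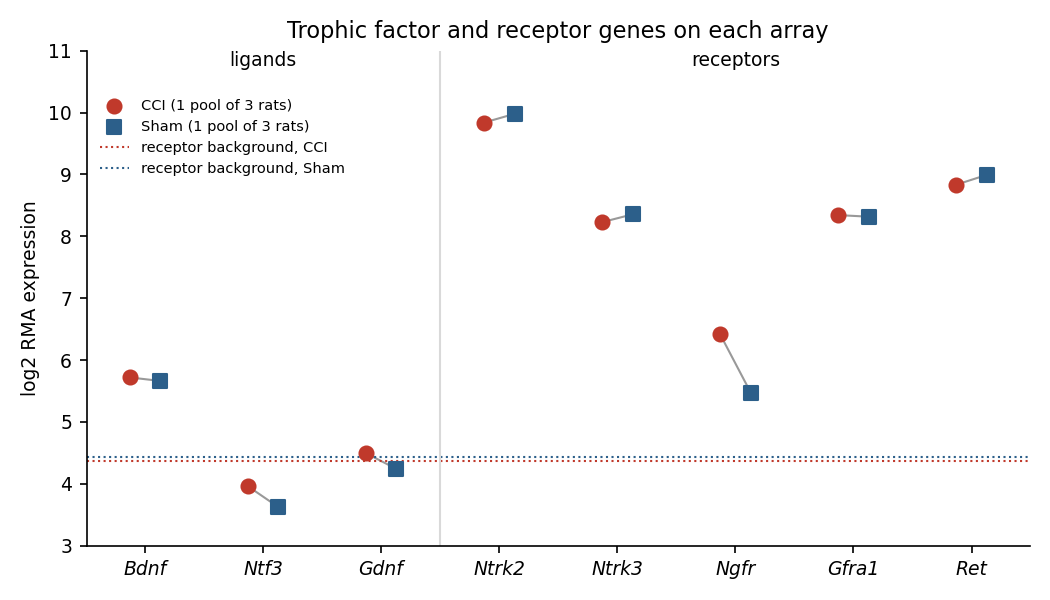
Log2 RMA expression (vertical axis) of the 8 members (horizontal axis) in the CCI pool (circles) and the Sham pool (squares), 1 array each, with the receptor background of each array as dotted lines. Ngfr shows the widest gap, 6.42 in CCI against 5.48 in Sham, Ntf3 lies below both lines and Gdnf straddles them.

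The difference of Ngfr also stood apart from genes of like brightness. Of the 500 genes whose mean level was closest to it, 5 were higher by more than 1.5-fold, and none by as much as Ngfr. The central range of those genes, from the 5th to the 95th percentile, ran from -0.45 to 0.33. Over all 18171 genes, Ngfr held rank 57 from the top, and rank 29 once genes dimmer than the median, 5.83, were set aside.

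**Figure D2:**
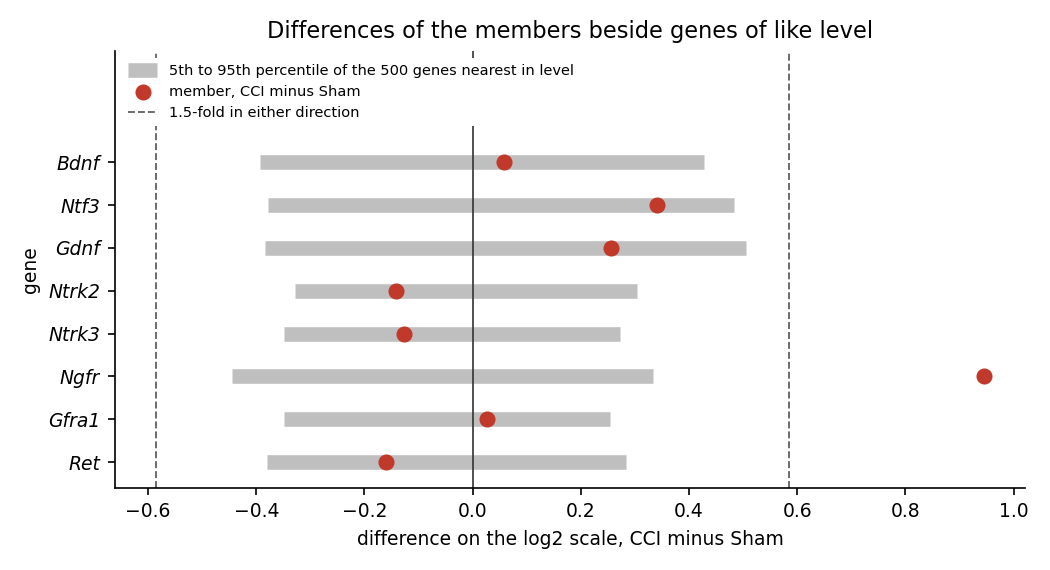
Difference on the log2 scale, CCI minus Sham (horizontal axis), of each member (points, 1 per gene), over the 5th to 95th percentile of the 500 genes nearest in mean level (grey bars), with 1.5-fold marked by dashed lines. Ngfr, at 0.95, is the member outside its grey bar, which ends at 0.33.

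The 3 genes with values nearest to those of Ngfr over the 2 arrays were Cd180, Bin2 and Gng14. Cd180 was at 6.34 in CCI and 5.48 in Sham, a distance of 0.08 on the log2 scale. Bin2 was at 6.45 in CCI and 5.57 in Sham, a distance of 0.10, and Gng14 at 6.30 in CCI and 5.53 in Sham, a distance of 0.13. With 1 value per group, this likeness rests on the pair of values alone.

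Ngfr is made by several cell types, among them Schwann cells and developing or injured motor neurons, and the levels of such cells are given beside it. Of 7 measured Schwann cell markers 3 were higher in CCI and 4 lower, with a median of -0.08. Foxd3, a neural crest and glial factor, was at 5.51 in CCI and 5.02 in Sham, and Cdh19 at 6.35 in CCI and 6.10 in Sham. In contrast, Pmp22 was at 10.32 in CCI and 10.50 in Sham, and Scn7a at 4.96 in CCI and 5.35 in Sham. The summed intensity of the Schwann list was 1534 in CCI and 1684 in Sham, most of it from Pmp22, and without that gene the other 6 summed to 254 in CCI and 237 in Sham. Egr2, the factor that drives myelination by Schwann cells, was below the gauge in both arrays, at 3.86 in CCI and 4.17 in Sham. The part of these cells in the Ngfr difference was not tested.

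Motor neuron markers were mostly lower, 8 of 9, with a median of -0.24. The acetylcholine-synthesising enzyme Chat, named after its value was seen, was 1.68-fold lower, at 6.03 in CCI and 6.78 in Sham. Nefm was at 11.77 in CCI and 12.04 in Sham, and Nefh at 11.16 in CCI and 11.40 in Sham. The summed intensity of the motor neuron list was 6842 in CCI and 8153 in Sham. Without Nefm, its brightest gene, the other 8 summed to 3349 in CCI and 3941 in Sham. The lower direction was shared by pan-neuronal markers, 10 of 10 with a median of -0.24. Of the meninges and fibroblast markers 3 of 6 were higher, and 1 of the 6 was past 1.5-fold, against 1.64% of all named genes in that direction. It was the collagen gene Col1a1, at 6.13 in CCI and 5.53 in Sham (1.52-fold). The summed intensity of this list was 331 in CCI and 316 in Sham. Endothelial and mural markers were lower in 7 of 9, with sums of 1625 in CCI and 1719 in Sham. Their part in the Ngfr difference was not tested either. In tissue RNA, fewer cells of a type and less RNA per cell cannot be told apart.

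Microglia markers were higher in CCI as well. This held for all 9 measured, and the list median was 0.77. Past 1.5-fold were 6 of the 9, against 1.64% of all named genes in that direction. The summed intensity of the microglia list was 3630 in CCI and 1975 in Sham. Cx3cr1, the microglial fractalkine receptor, was at 9.60 in CCI and 8.89 in Sham, and Csf1r at 9.60 in CCI and 8.82 in Sham. Of 9 measured astrocyte markers 5 were higher and 4 lower, none past 1.5-fold, with a summed intensity of 19146 in CCI and 18322 in Sham. Their median was 0.08, and -0.04 with values below the gauge raised to it. The largest difference among them was that of Gfap, at 11.57 in CCI and 11.21 in Sham (1.28-fold). The part of microglia in the Ngfr difference was not tested. Of the remaining marker lists, oligodendrocyte genes had a median of 0.09, their precursors -0.20, sensory ganglion neurons -0.02 and skeletal muscle 0.09.

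None of the 3 ligand genes passed 1.5-fold. Bdnf was at 5.72 in CCI and 5.66 in Sham, a difference of 0.06 or 1.04-fold, both above the gauge. Among the 500 genes nearest to it in level, 62.4% had a smaller difference, so the value lay well inside their central range of -0.39 to 0.43. The purinergic receptor P2rx4, through which microglia are known to release Bdnf in rodent pain models, was at 6.73 in CCI and 6.66 in Sham. It was likewise within 1.5-fold, at 1.05-fold.

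The single Bdnf value sums transcripts that begin at several starts of the gene, so a shift from one start to another could not be seen. Promoter windows from RefSeq were matched by symbol for 5 of the 8 members, 6 at Bdnf, 3 at Ntf3 and 1 each at Gdnf, Gfra1 and Ret. No window was matched for Ngfr, Ntrk2 and Ntrk3, so the promoters of these members were not searched. In 250 bases upstream of each start, 4 motifs were searched on both strands. They were the GC box GGGCGG, the half-site TGACG of the cAMP response element (CRE), TGANTCA and the C/EBP site TTGCNNAA. TGANTCA, called AP-1 site here, is a loose form of that site with any base at its centre. The only match to it, in Bdnf, reads TGAATCA. The CRE half-site was found in 2 of the 12 windows, 1 of Bdnf and 1 of Gdnf, against 18.2% of 33465 RefSeq promoter windows of the same length. It was thus no more frequent here than in all windows and is not particular to the members. The GC box was found in 5 windows (30.5% of all), the AP-1 site in 1 window, of Bdnf (6.34% of all), and the C/EBP site in 0 (9.22% of all). A match is a description of the letters, and overlaps between windows of a gene were not removed.

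Below are shown the 2 Bdnf windows that hold a CRE half-site, or an AP-1 site with 2 GC boxes, since their transcripts fall into 1 array value. The Gdnf window, which also holds a half-site, is shown with these windows. They are RefSeq sequence of the rat GRCr8 build, plus strand, written 5′ to 3′ with the matched motifs in capitals. The first lies at chr3:116621721-116621970, the second at chr3:116637608-116637857 and the third at chr2:58621077-58621326.
Bdnf window with AP-1 site and GC boxes: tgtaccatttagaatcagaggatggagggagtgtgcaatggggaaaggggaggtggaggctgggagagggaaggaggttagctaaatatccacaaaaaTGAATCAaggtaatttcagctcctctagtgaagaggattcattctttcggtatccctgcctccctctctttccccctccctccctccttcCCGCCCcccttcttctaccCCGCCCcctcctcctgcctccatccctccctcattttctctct
Bdnf window with CRE half-site: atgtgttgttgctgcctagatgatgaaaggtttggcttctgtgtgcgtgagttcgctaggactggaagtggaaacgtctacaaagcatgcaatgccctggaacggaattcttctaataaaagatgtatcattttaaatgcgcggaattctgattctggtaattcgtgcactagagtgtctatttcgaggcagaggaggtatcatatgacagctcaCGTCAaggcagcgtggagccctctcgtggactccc
Gdnf window with CRE half-site: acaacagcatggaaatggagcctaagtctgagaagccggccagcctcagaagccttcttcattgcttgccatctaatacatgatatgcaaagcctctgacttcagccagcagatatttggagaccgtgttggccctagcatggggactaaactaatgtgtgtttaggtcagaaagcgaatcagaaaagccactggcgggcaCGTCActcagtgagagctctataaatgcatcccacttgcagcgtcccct

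In both of the latter windows the half-site matches on the opposite strand. Its base farthest from the start of transcription lies 35 bases before that start in the second Bdnf window, and 49 bases before it in the Gdnf window. Creb1, the factor that binds the CRE, was at 7.50 in CCI and 7.36 in Sham, and its coactivator Crtc1 at 7.82 in CCI and 8.15 in Sham, a 1.26-fold lower value in CCI. The activity of either promoter was not measured.

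Ntf3 was at 3.96 in CCI and 3.62 in Sham, below the background gauge in both arrays. No fold and no direction is given for it, since the difference of 0.34 turned to -0.074 with values below the gauge raised to it. Gdnf was at 4.50 in CCI, just above the gauge, and at 4.24 in Sham, below it. Against the background of the Sham array it was at least 1.04-fold higher, a bound that does not establish a difference. With values raised to the gauge, the Gdnf difference of 0.26 became 0.058. Bdnf was thus the one ligand above background in both arrays.

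Both Trk receptors of the ligands were slightly lower in CCI. Ntrk2 was at 9.84 in CCI and 9.98 in Sham, a difference of -0.14 or 1.10-fold lower. The array value does not separate the full-length kinase from the truncated receptor that astrocytes are known to make. Ntrk3 was at 8.23 in CCI and 8.36 in Sham, a difference of -0.13 or 1.09-fold lower. Of the 500 neighbours in level, 25.4% had a smaller difference than Ntrk2 and 30.4% a smaller one than Ntrk3, and both members lay inside the central ranges of -0.33 to 0.30 for Ntrk2 and -0.35 to 0.27 for Ntrk3.

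The Gdnf receptor pair was close to Sham as well. Gfra1 was at 8.34 in CCI and 8.32 in Sham, a difference of 0.03 or 1.02-fold. Ret, which is made by motor neurons in the ventral horn, was at 8.83 in CCI and 8.99 in Sham. Its difference of -0.16, or 1.12-fold lower, was the lowest of the 8 members and exceeded that of 25.0% of its 500 neighbours in level. Motor neuron markers, with a median of -0.24, differed in the same direction. So did pan-neuronal markers, lower in 10 of 10 and also with a median of -0.24. The part of either in the Ret value was not tested. Of the 5 receptors 2 were higher in CCI (Ngfr and Gfra1) and 3 lower.

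**Figure D3:**
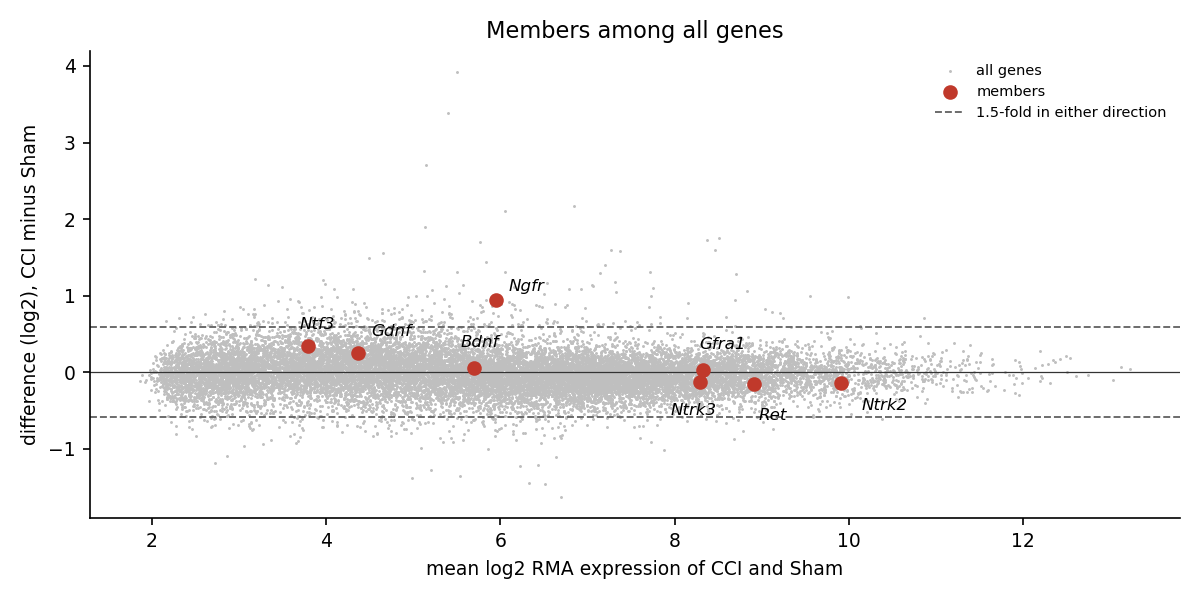
Difference on the log2 scale, CCI minus Sham (vertical axis), against the mean log2 RMA expression of both arrays (horizontal axis), for all named genes (small grey points) and the 8 members (labelled points), with 1.5-fold as dashed lines. Ngfr lies above the upper line at 0.95, and the other members lie between -0.16 and 0.34.

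By sign alone, 5 of the 8 members were higher in CCI and 3 lower, with a median difference of 0.04. The 5 include Ntf3, below the gauge in both arrays, and Gdnf, below it in Sham, for which no difference is established. Over all 18171 genes 8650 were higher and 9518 lower, with a median of -0.01. The sign of the members' median was not stable, being -0.024 with values raised to the gauge, where Ntf3 turned, and -0.13 over the 5 members at or above the median level. Beside them, 111 other genes of the trophic pathways were measured, of which 74 (66.7%) were lower in CCI, against 52.4% of all named genes. None of the 111 was higher by more than 1.5-fold, against 1.64% of all named genes. Lower by more were 4 of them, Pcsk2, Egr1, Nr4a1 and Grin2b, against 1.14% of all named genes. Pan-neuronal markers were lower too, 10 of 10 with a median of -0.24 and a summed intensity of 14445 in CCI and 16512 in Sham, and their part in these lists was not tested.

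Of the other neurotrophin genes 7 of 9 were measured, and 5 were lower, with a median of -0.27 and none past 1.5-fold. Ntf4, a further ligand of Ntrk2, was below the gauge in both arrays, at 4.31 in CCI and 4.06 in Sham. The sortilin family, transmembrane receptors that sort neurotrophins and bind their precursors together with p75, included the 4 most negative differences of the list and 1 higher value, that of Sorcs2, at 6.69 in CCI and 6.64 in Sham. Sorcs3 was at 6.28 in CCI and 6.69 in Sham (1.33-fold lower), Sorl1 at 7.67 in CCI and 8.07 in Sham (1.32-fold lower), Sorcs1 at 7.70 in CCI and 8.02 in Sham (1.26-fold lower) and Sort1 at 9.97 in CCI and 10.24 in Sham, a difference of -0.27.

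Every one of the 9 further genes listed for the GDNF family, counting Ncam1 with them, had a lower value in CCI, against 52.4% of all named genes. Their median was -0.21, with none past 1.5-fold and 3 at or below the gauge in both arrays. Gfra2, the co-receptor of neurturin, was at 8.45 in CCI and 8.72 in Sham, and Nrtn, which encodes neurturin, at 5.63 in CCI and 5.84 in Sham. Artn, the ligand artemin, was at 4.26 in CCI, below the gauge, and 4.47 in Sham, with a bound of at least 1.08-fold lower, which does not establish a difference. Its co-receptor Gfra3 was below the gauge in both arrays, at 4.03 in CCI and 4.20 in Sham. Ncam1, an adhesion molecule that can carry Gdnf signals without Ret, was at 10.49 in CCI and 10.72 in Sham.

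The adaptor and regulator genes of Trk and Ret all differed by less than 1.5-fold. Of 20 measured adaptors of Trk and Ret 13 were lower, with a median of -0.08. Shc1, an adaptor that links the receptors to Ras, had the largest positive difference, at 7.14 in CCI and 6.73 in Sham (1.33-fold), and the adaptor Dok5 was at 7.99 in CCI and 7.74 in Sham. Plcg1, the phospholipase recruited by Trk receptors, was at 7.60 in CCI and 7.90 in Sham, and the Ras exchange factor Sos1 at 8.13 in CCI and 8.41 in Sham.

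Among 14 measured regulators of Trk and Ret 13 were lower, with a median of -0.10. Slitrk5, a transmembrane protein that binds Ntrk2 and aids its recycling, was at 7.71 in CCI and 8.26 in Sham (1.45-fold lower). Lrig2 was lower in CCI by a difference of -0.31, and Spry4, an inhibitor of receptor tyrosine kinase signals, was at 5.15 in CCI and 5.34 in Sham. Cd2ap, an endocytic adaptor, was the single higher one, at 9.05 in CCI and 8.67 in Sham (1.30-fold).

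Partners of p75 were split in direction. Of 10 measured, 6 were higher in CCI and 4 lower, with a median of 0.03 and none past 1.5-fold. Maged1, also called NRAGE, was at 9.31 in CCI and 9.62 in Sham, and the co-receptor Lingo1 at 6.43 in CCI and 6.59 in Sham. Ripk2, a kinase that binds the p75 death domain, was at 7.23 in CCI and 7.04 in Sham, and Irak1 at 7.77 in CCI and 7.61 in Sham.

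**Figure D4:**
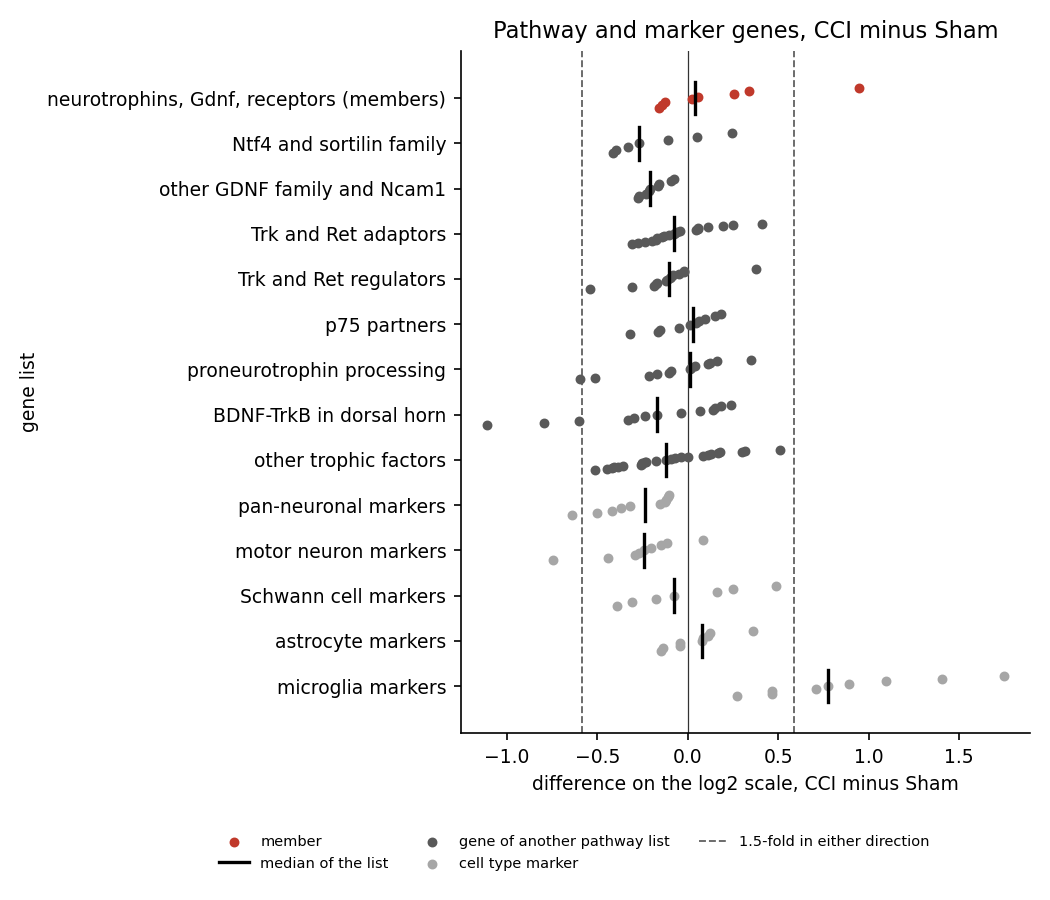
Difference on the log2 scale, CCI minus Sham (horizontal axis), of each measured gene (1 point per gene) of 9 pathway lists and 5 marker lists (vertical axis), with black bars for the list medians and dashed lines at 1.5-fold. The 8 members have a median of 0.04, the 9 genes listed as other GDNF family and Ncam1 all lie below 0, and the 9 microglia markers all lie above it.

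Of 13 measured genes for the processing of proneurotrophins 7 were higher and 6 lower, with a median of 0.01. Of the 7 higher, 3 were at or below the gauge in both arrays, so no direction is established for them. The list median was -0.074 with values raised to the gauge, and -0.11 over the genes at or above the median level. Pcsk2, a prohormone convertase of secretory granules, was lower past 1.5-fold, at 8.37 in CCI and 8.96 in Sham (1.51-fold). Pcsk6 was at 7.21 in CCI and 7.72 in Sham (1.43-fold lower), and Pcsk5 at 4.54 in CCI and 4.76 in Sham. Plat, which activates the protease plasmin that matures Bdnf outside the cell, was at 9.31 in CCI and 9.48 in Sham.

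Genes around Bdnf and Ntrk2 signalling in the dorsal horn were lower in 8 of 13, with a median of -0.17. Slc12a5 was at 8.41 in CCI and 8.71 in Sham, a 1.23-fold lower value that did not pass the threshold. Past it were 3 of the 13, against 1.14% of all named genes in that direction. They were the immediate early genes Egr1 (2.16-fold lower) and Nr4a1 (1.73-fold lower) and the NMDA receptor subunit Grin2b (1.52-fold lower). Egr1 was at 6.08 in CCI and 7.19 in Sham, Nr4a1 at 5.89 in CCI and 6.68 in Sham, and Grin2b at 6.92 in CCI and 7.52 in Sham. Other genes of the list that neuronal activity or trophic signals are known to induce were within 1.5-fold, with differences of -0.17 for Fos, -0.04 for Arc, 0.18 for Vgf and 0.15 for Dusp6.

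Trophic factors of other families were lower in 16 of 25, with a median of -0.12 and none past 1.5-fold. Igf1, insulin-like growth factor, had the largest positive difference, at 6.88 in CCI and 6.36 in Sham (1.42-fold), while its receptor Igf1r was at 7.11 in CCI and 7.53 in Sham (1.34-fold lower). Osmr, the oncostatin M receptor, was at 5.33 in CCI and 5.84 in Sham (1.43-fold lower), and Nrg1, a ligand of ErbB receptors, at 6.73 in CCI and 7.17 in Sham (1.36-fold lower).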

How the data were processed

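The data were log2 RMA expression values that the authors deposited for 28879 probe sets on 2 Affymetrix Rat Gene 2.0 ST arrays, 1 per group, each of RNA mixed from 3 rats; the groups come from the sample titles, where CCI is the model. RMA, named in the submitters' processing notes, subtracts background, equalises the arrays' distributions and summarises probes, so it shrinks differences of dim genes and hides a shift shared by most genes. Its version, the annotation and the build used were not given in the sources used here. Values were used as deposited, with Python 3.11.15 and pandas 2.3.3.

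Probe sets naming exactly 1 gene in the platform annotation (18511) were kept, symbols were updated through Entrez IDs (18394 matched RefSeq GRCr8), and for the 286 genes with several probe sets the one with the highest mean was taken. The difference was CCI minus Sham, with 1.5-fold, the study's fold threshold, as the mark; its P threshold cannot be applied to 2 arrays. Where the dimmer value was at or below the receptor gauge, the fold is a bound against it. The script was checked on simulated data. The 8 members and the 21 other lists were chosen with earlier results of these data known. Besides the members, named genes are P2rx4, Slc12a5 and selected ligands and receptors, up to 4 per pathway list with the largest absolute difference above the gauge, up to 2 per marker list with the highest mean level, and the 3 nearest genes to Ngfr. Sorcs2, Foxd3, Scn7a, Egr2, Chat, Col1a1, Gfap, Emx2, Creb1, Fos, Arc, Vgf and Dusp6 fall outside this rule and were chosen after their values were seen. Sums without the brightest gene of a list were added after seeing the data. Alternatives were a lowess trend (span 0.3, statsmodels 0.14.6), median centring, values raised to the gauge, other probe set rules, thresholds of 1.2-fold and 2-fold, a floor at the median level, and list means.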

Additional observations from a re-analysis of the deposited data

How the results depend on the processing

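The differences of the 8 members kept their direction and their side of 1.5-fold when a lowess trend on level or the median difference was subtracted, with Ngfr between 0.95 and 0.98. Each member has 1 probe set and none shared with another gene, so the probe set rules gave the same values. With values below the background gauge raised to it, the Ntf3 difference was -0.074, which is the gap between the gauges of the arrays. The median of the other GDNF family genes with Ncam1 was -0.11 in that setting. The count of members higher in CCI was 0 at 2-fold and 2 at 1.2-fold, where the added gene was Ntf3, whose values are both below the gauge, and 0 were lower at each threshold tried. The shares of all named genes past 2-fold and 1.2-fold were not counted, so the members cannot be compared with other genes at these thresholds. The median of the members was -0.13 over the 5 at or above the median level, and their mean was 0.15. The median of the processing genes was -0.11 over the 7 at or above that level. No paired analysis was possible because each group has 1 array, and no array could be left out. The number of arrays limits precision, and array error and variation between rats were not measured. No member's difference can therefore be told from them. This holds for Ngfr as well as for the small differences of Bdnf, Gfra1, Ntrk2, Ntrk3 and Ret.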
